A study of Mus musculus with 27 samples.

Results

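The genes described here build and run motile cilia, and they were followed across 3 groups of fetal mouse lungs. A list of 42 genes was taken by gene symbol: 3 transcription factors, subunits of the axoneme grouped by their place in it, and genes that mark multiciliated airway cells. Older platform symbols were accepted for Dnai1, Dnai2 and Cfap52. Of the 42 genes, 38 had a named probe on the Illumina bead array, with 66 probes among them, and 33 genes had a probe that passed the detection filter, out of 11945 genes measured in all. No named probe was found here for Ccdc153, Lrrc23, Tekt2 or Tekt4, which are not analysed.

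The tissue was the left lung lobe of male fetuses of the strain C57BL/6 X BALBc at day 18 of gestation. Control fetuses developed in vivo in naturally ovulating females. EG in vitro fetuses came from blastocysts made in vitro, and EG in vivo fetuses from blastocysts that had formed in vivo, and both kinds of blastocyst were moved into pseudo-pregnant females. Each group held 3 biological replicates, called pools below after their labels, and every pool was read on 3 technical arrays. How many fetuses went into a pool is not stated, nor whether pools stem from different litters, so p-values measure the spread between these pools, which may be technical.

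A motile cilium is a whip-like extension of the cell surface with a core, the axoneme, of doublet microtubules around a central pair. Dynein arms on the doublets slide them past each other, nexin links and radial spokes turn sliding into bending, and the central apparatus sets the pattern of the beat. In the airways, multiciliated cells carry these cilia and clear mucus. Foxj1 is the transcription factor that switches on motile cilia genes, and the RFX factors Rfx2 and Rfx3 bind the X-box, a short promoter element of ciliary genes.

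Upstream sequences were available from RefSeq (GRCm38.p6) for 35 of the 42 genes, and the stretch of 250 bases before each start was searched on both strands. A short X-box match, GTTGCC, was present in 20 of the 35 genes (57.1%) and in 11.8% of 27025 genes. A full X-box, written here as GTNNCC, then any 3 bases, then GNAAC, was present in 5 genes (14.3%), namely Hydin, Klhdc9, Pifo, Spag16 and Tekt4, against 2.1% of all genes, and its matches can overlap short ones. The forkhead motif TGTTTAC was present in Ak7, Mlf1 and Sntn (8.6%), against 3.5% of all genes. These are matches of letters and not measured binding sites. The sequences below are read in the direction of each gene, with the match in capitals. In Hydin the match is on the reverse strand. The first set shows full X-boxes of genes that were lower in both transfer groups.
Hydin (central apparatus, chr8:110266931-110266976, plus strand): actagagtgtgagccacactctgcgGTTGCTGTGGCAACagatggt
Pifo (chr3:106001498-106001542, minus strand): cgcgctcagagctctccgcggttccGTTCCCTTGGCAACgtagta
Klhdc9 (chr1:171360842-171360905, minus strand): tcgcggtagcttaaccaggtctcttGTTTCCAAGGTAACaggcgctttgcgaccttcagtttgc
Spag16 (central apparatus, chr1:69826842-69826905, plus strand): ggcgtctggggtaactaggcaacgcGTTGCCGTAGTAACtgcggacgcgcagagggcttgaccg

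The second set shows short matches before genes picked for having both a match and a large decrease. It also shows Mns1, the single member that was higher, since its upstream stretch carries the same letters. Dnai2, with small differences, and Rfx2, which was not called, had the short match too. Whether a match goes with the size of a change was not tested. On the reverse strand the short motif reads GGCAAC.
Cdhr3 (chr12:33092876-33092906, minus strand): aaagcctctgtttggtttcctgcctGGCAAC
Fam183b (chr11:58801961-58802001, minus strand): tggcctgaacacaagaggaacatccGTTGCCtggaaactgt
1110017D15Rik (chr4:41507765-41507807, minus strand): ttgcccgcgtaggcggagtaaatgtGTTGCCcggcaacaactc
Enkur (chr2:21205369-21205424, minus strand): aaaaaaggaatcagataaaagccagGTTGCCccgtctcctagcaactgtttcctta
Dynlrb2 (dynein arm, chr8:116504939-116504994, plus strand): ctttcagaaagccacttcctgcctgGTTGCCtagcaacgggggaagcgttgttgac
Mns1 (chr9:72438432-72438487, plus strand): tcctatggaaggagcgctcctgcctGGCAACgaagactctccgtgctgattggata

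Before the results, several facts of the arrays bear on them. Each array detected 19762 to 23449 probes, and the replicate 3 pools were dimmer than the others in every group, with array medians of 113.3 to 127.3 against 142.1 to 169.8. Pools with the same replicate number deviated from their group means together in all 9 pairs (correlations of 0.503 to 0.827), though pools with different numbers reached 0.774. A fit with the replicate number as a block is given beside each member and each list count that it changes. All samples are labelled male and every array detected Y-linked genes (Uty, Kdm5d and Eif2s3y), but Xist, which marks the inactive X of female cells, read 10.90 in control replicate 1 and 4.56 to 5.45 in the other 8 pools. Xist was also detected, at that low level, on 6 of 9 EG in vitro arrays. Counts are therefore also given without control replicate 1. The lung marker Nkx2-1 was high in every pool, at 13.06 to 13.60.

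All levels below are normalized log2 intensities, each the mean of the 3 arrays of a pool, and a difference of 1 is a 2-fold change in normalized intensity. Levels of different genes come from different probes and were not compared. A gene was called changed when limma's p, adjusted over all 22958 kept probes, was under 0.05. In EG in vitro lungs, 29 of the 33 genes fell and 1 rose against control, where 23.0% of all genes fell and 21.8% rose. In EG in vivo lungs, 29 fell and 1 rose, where 21.2% of all genes fell and 22.2% rose. All 3 EG in vitro pools lay below all control pools for 30 of the 33 (28.8% of all genes) and above them for 1 (28.6%), and all 3 EG in vivo pools lay below for 29 (25.2%) and above for 1 (28.1%). The 33 genes had a median log2 difference of -1.74 for EG in vitro and -1.56 for EG in vivo, beside 0.03 and 0.04 over all genes. Both comparisons used the same control pools, so their likeness is not independent evidence. The only gene that rose was Mns1, and the 3 not called were the transcription factors. In whole lung tissue, fewer ciliated cells and less RNA per ciliated cell cannot be told apart.

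**Figure D1:**
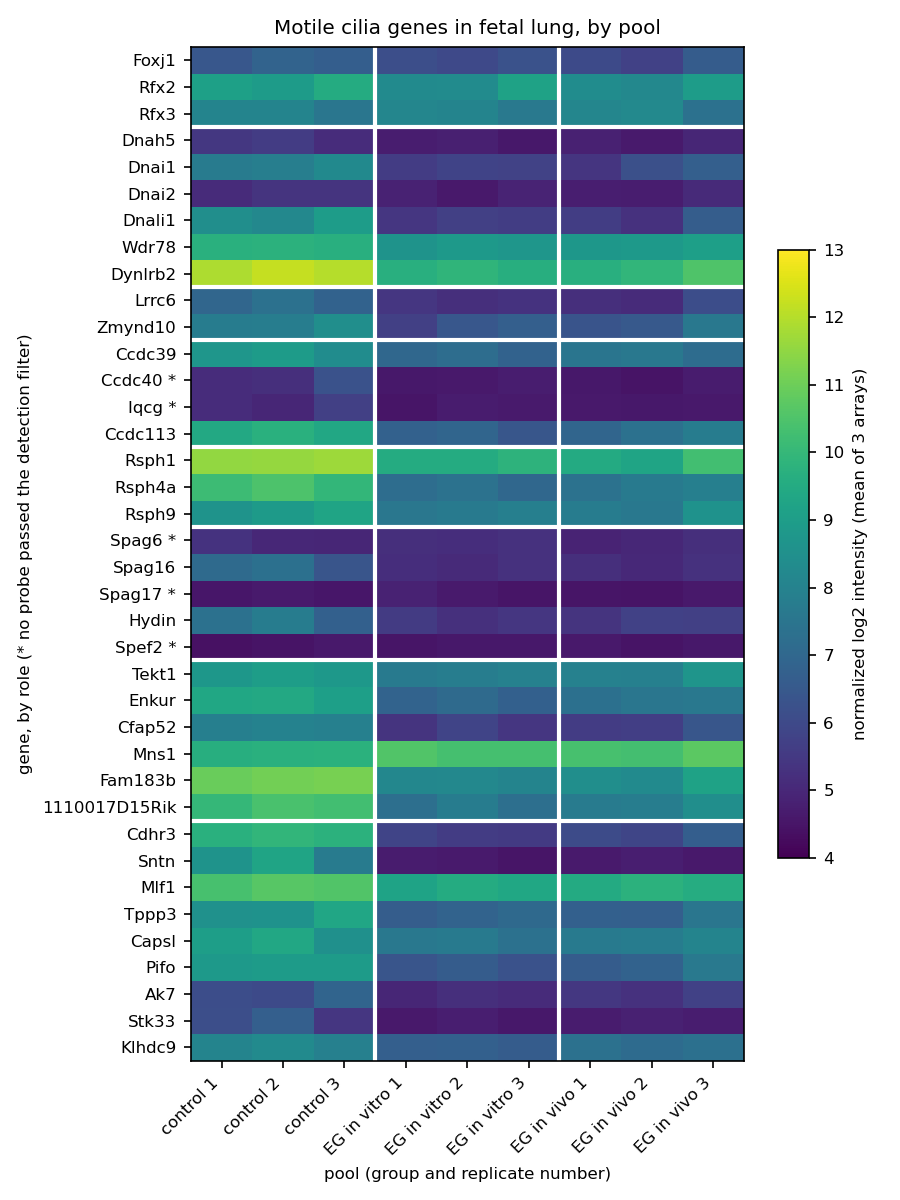
Normalized log2 intensity (colour) of the 38 genes with a named probe, in rows grouped by role, in each of the 9 pools, in columns. Colours are to be read along a row, since rows come from different probes. In most rows the 3 control pools are brighter than the 6 transfer pools, and Mns1 runs the other way.

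The filter itself favours genes that are high in 1 group, so the members were divided by where they passed it. In every group, 25 of the 33 passed, and of these 21 fell, 1 rose and 3 were not called in each comparison with control. The share called among all genes that passed in every group was not computed. The shares above are over all genes measured, so the count of 21 has no matching background. The other 8 were Dnah5, Dnai2, Lrrc6, Spag16, Hydin, Sntn, Ak7 and Stk33. Of these, 6 passed through the control arrays alone, all but Hydin and Ak7, so their fall is not independent of the filter. Dnah5, Dnai2, Sntn and Stk33 were detected on none of the 18 arrays of the transfer groups. For those 4 a fold is given as a lower bound: the control mean against a dim group's mean of, on each array, the lowest signal among detected probes or the probe's own signal if that was higher. With the 4 at their bounds the medians stayed at -1.74 and -1.56, which could not move, since none of the 4 crosses the median at its bound. Other members were detected on some arrays of a dim group, but on fewer than 6. With these at their bounds too (8 genes in all for EG in vitro and 6 for EG in vivo), the medians were -1.7 and -1.46. Per array, 32 to 36 of the 38 genes were detected in controls, 24 to 29 in EG in vitro and 25 to 30 in EG in vivo.

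Without control replicate 1, the pool with the high Xist signal, 29 genes fell and 1 rose in EG in vitro, and 27 fell and 1 rose in EG in vivo, where Zmynd10 and Tekt1 were no longer called (limma's adjusted p = 0.0632 and 0.072). With replicates 1 and 2 of each group alone, leaving out the dim pools, 31 fell and 1 rose in each comparison. Of the 22958 kept probes, 5807 then fell and 6553 rose in EG in vitro, and 5541 fell and 6426 rose in EG in vivo. With all pools these numbers were 4564 and 4728, and 4347 and 4664. Without control replicate 1 they were 3858 and 3798, and 3591 and 3785.

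Among the transcription factors, none was called in either comparison. Foxj1, the master regulator of motile cilia, read 6.46, 6.87 and 6.70 in control pools 1, 2 and 3, then 6.17, 5.98 and 6.28 in EG in vitro and 6.02, 5.75 and 6.62 in EG in vivo. Every EG in vitro pool lay below the controls, while EG in vivo replicate 3 lay among them. The log2 difference was -0.53 ± 0.22 (SE, n = 3 pools a group; limma's adjusted p = 0.0936) for EG in vitro and -0.55 ± 0.22 (limma's adjusted p = 0.0863) for EG in vivo. With the replicate block Foxj1 was called lower in both (limma's adjusted p = 0.0453 and 0.0413). The block raised calls across the whole array. In EG in vitro 5958 of the 22958 kept probes fell and 6841 rose with it, beside 4564 and 4728 without it. In EG in vivo 5846 fell and 6625 rose, beside 4347 and 4664. Without EG in vivo replicate 3, the pool among the controls, Foxj1 was also called in both, at -0.53 (limma's adjusted p = 0.0245) and -0.79 (limma's adjusted p = 0.00867). Leaving out any other pool gave no call. The EG in vivo difference was -0.36 without EG in vivo replicate 2 (limma's adjusted p = 0.258), and the EG in vitro difference was -0.45 without EG in vitro replicate 2 (limma's adjusted p = 0.242).

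Rfx2 read 9.11, 8.95 and 9.54 in control, 8.32, 8.35 and 9.18 in EG in vitro and 8.38, 8.19 and 8.98 in EG in vivo. In each group replicate 3 was the highest, and both transfer groups overlapped the controls through it. The differences were -0.58 ± 0.30 (limma's adjusted p = 0.158) and -0.68 ± 0.30 (limma's adjusted p = 0.104), and with the replicate block both were called (limma's adjusted p = 0.00343 and 0.00166). Leaving out EG in vitro replicate 3 gave -0.86 in EG in vitro (limma's adjusted p = 0.0401), and leaving out EG in vivo replicate 3 gave -0.91 in EG in vivo (limma's adjusted p = 0.0446). Counted with the block, 31 of the 33 genes fell and 1 rose in each comparison, in a fit that also called more of all kept probes, as given above.

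Rfx3 was called by neither fit. Its pools read 8.06, 8.05 and 7.53 in control, 8.13, 8.05 and 7.65 in EG in vitro and 8.13, 8.22 and 7.36 in EG in vivo, so that replicate 3 was the lowest of each group. The differences were 0.07 ± 0.26 (limma's adjusted p = 0.869, 0.648 with the replicate block) and 0.03 ± 0.26 (limma's adjusted p = 0.95, 0.86 with the block), and their sign changed under several settings listed in the closing section.

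The structural genes can be set beside Foxj1 through their intervals. The 95% confidence interval of Foxj1 reached down to -1.04 for EG in vitro and -1.06 for EG in vivo, and the intervals of 19 and 16 of the 30 genes that are not transcription factors lay wholly below those limits. These intervals were compared as they stand, and the difference between genes was not tested. Foxj1 was read by 1 dim probe, with control pools at 6.46 to 6.87, and dim probes limit the size of a difference. Over the alternative settings its difference ran from -0.64 to -0.22 in EG in vitro and from -0.79 to -0.22 in EG in vivo. Whether Foxj1 RNA fell less than RNA of the structural genes is therefore not shown.

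**Figure D2:**
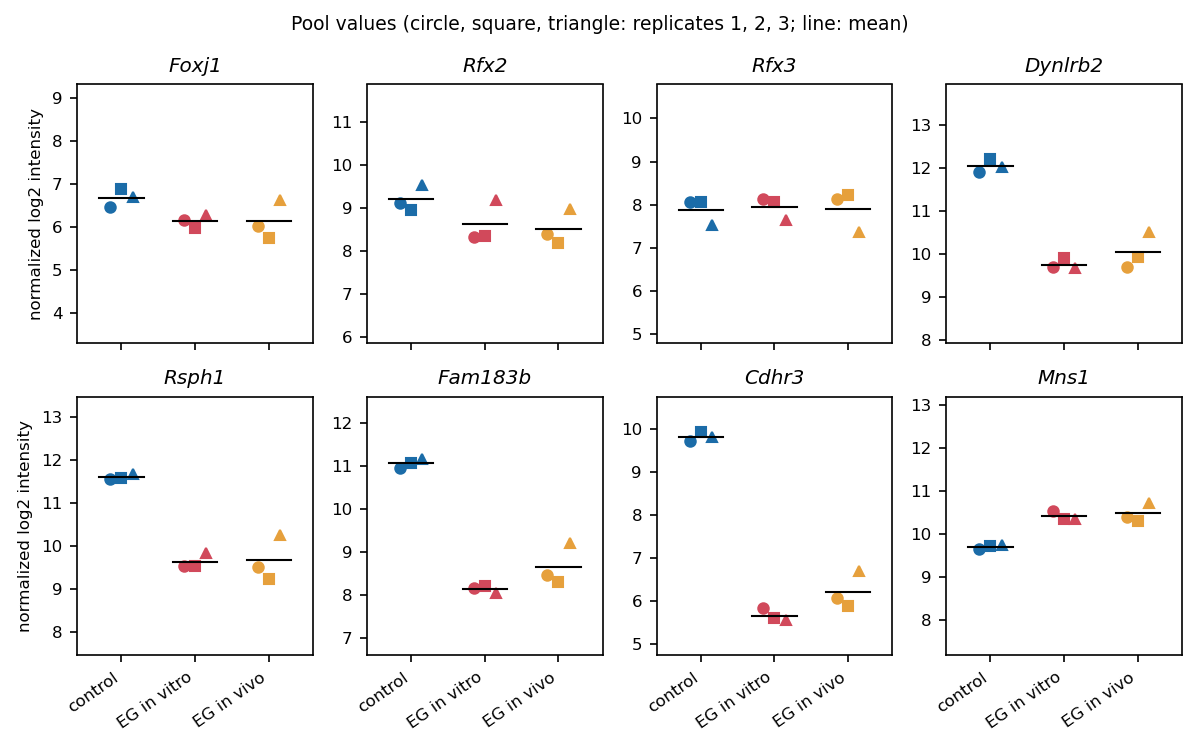
Normalized log2 intensity (vertical axis, the same span in each panel) of 8 genes by group. Symbols are the pools (circle, square and triangle for replicates 1, 2 and 3) and lines the group means. The transfer pools of Rfx2 and Rfx3 overlap their control pools. For Cdhr3 the control pools read 9.70 to 9.93 and the transfer pools 5.54 to 6.69.

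All 6 dynein arm subunits fell in both groups. Dynlrb2, a roadblock-type light chain, read 11.91, 12.21 and 12.01 in control, 9.69, 9.90 and 9.66 in EG in vitro and 9.69, 9.92 and 10.51 in EG in vivo. Every transfer pool was far below every control pool, and EG in vivo replicate 3 was the highest of the transfer pools. Its log2 difference was -2.29 ± 0.21 (limma's adjusted p = 6.42e-05), which is 4.89-fold lower, in EG in vitro, and it was 4.01-fold lower in EG in vivo (SE 0.21 on the log2 scale, limma's adjusted p = 0.000146).

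Wdr78, an intermediate chain of an inner arm, had control pools at 9.70, 9.77 and 9.68, EG in vitro pools at 8.64, 8.86 and 8.74 and EG in vivo pools at 8.76, 8.86 and 9.08. The pools of a group lay close together and the groups did not overlap with control. The change was smaller than that of Dynlrb2, at -0.97 ± 0.12 (limma's adjusted p = 0.000388) and -0.82 ± 0.12 (limma's adjusted p = 0.00106).

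Dnali1, an inner arm light intermediate chain, read 8.46, 8.21 and 8.97 in control, 5.43, 5.71 and 5.64 in EG in vitro and 5.62, 5.27 and 6.66 in EG in vivo. All transfer pools were below the controls, with EG in vivo replicate 3 more than 1 log2 unit above the other EG in vivo pools. By its brighter probe it fell by 2.95 in EG in vitro (SE 0.34, limma's adjusted p = 0.000236) and by 2.70 in EG in vivo (SE 0.34, limma's adjusted p = 0.000425). A dimmer Dnali1 probe was called lower with smaller differences of -0.84 and -0.77 (limma's adjusted p = 0.00162 and 0.0028). Dnai1, an outer arm intermediate chain, fell too, with differences of -2.21 and -1.86 by its brighter probe. Its dimmer probe gave -1.47 and -1.48 (limma's adjusted p = 0.0167 and 0.0168).

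For 2 arm subunits there were only bounds in the transfer groups. Dnah5, the outer arm heavy chain most often mutated in human primary ciliary dyskinesia, was detected on 7 of 9 control arrays, and was at least 1.15-fold lower in EG in vitro and at least 1.06-fold lower in EG in vivo (limma's adjusted p = 0.00591 and 0.0139). Without EG in vivo replicate 2 the EG in vivo difference was not called (limma's adjusted p = 0.0534). A second Dnah5 probe, detected on all 9 control arrays and on none of the transfer groups, was called lower in both comparisons (measured differences -1.04 and -1.03, limma's adjusted p = 0.00082 and 0.000913). Dnai2, another outer arm intermediate chain, was also detected on 7 control arrays. It was at least 1.04-fold lower in EG in vitro (limma's adjusted p = 0.0291) with no bound above 1 in EG in vivo (limma's adjusted p = 0.0455), and its call was lost under 7 and 11 of 19 alternatives. Among these, the EG in vitro call was lost without control replicate 2 or 3 or EG in vitro replicate 1 or 2 (limma's adjusted p of 0.0594 to 0.108). The EG in vivo call was lost without any pool other than control replicate 1 and EG in vivo replicate 3 (limma's adjusted p of 0.0563 to 0.142).

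Lrrc6 and Zmynd10, which assemble dynein arms in the cytoplasm before they enter the cilium, both fell. Lrrc6 read 6.97, 7.34 and 6.84 in control, 5.41, 5.21 and 5.31 in EG in vitro and 5.22, 5.11 and 6.12 in EG in vivo. All control arrays detected it, as did 5 of 9 EG in vitro and 4 of 9 EG in vivo arrays. The differences were -1.74 ± 0.26 (limma's adjusted p = 0.00104) and -1.56 ± 0.26 (limma's adjusted p = 0.00198). A second Lrrc6 probe, dimmer and detected on 6 control arrays alone, differed by -1.11 and -1.07 and was not called (limma's adjusted p = 0.114 and 0.128).

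Zmynd10 had control pools at 7.79, 7.82 and 8.43, EG in vitro pools at 5.71, 6.43 and 6.73 and EG in vivo pools at 6.33, 6.50 and 7.61. EG in vivo replicate 3 came near the lowest control pool. The gene fell by 1.73 in EG in vitro (SE 0.39, limma's adjusted p = 0.00743) and by 1.20 in EG in vivo (SE 0.39, limma's adjusted p = 0.0372), and the second call was lost when any control pool, EG in vitro replicate 2, or EG in vivo replicate 1 or 2 was left out (limma's adjusted p of 0.0569 to 0.122).

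Of the 5 genes of the axonemal ruler and the nexin-dynein regulatory complex, 2 could be tested and both fell. Ccdc39, which with Ccdc40 forms the ruler that spaces the arms along the doublet, read 8.74, 8.93 and 8.36 in control, 7.01, 7.20 and 6.82 in EG in vitro and 7.50, 7.61 and 7.18 in EG in vivo. All groups kept the same order of pools, with replicate 2 highest and replicate 3 lowest. Its differences were -1.66 ± 0.19 (limma's adjusted p = 0.0002) and -1.25 ± 0.19 (limma's adjusted p = 0.00106).

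Ccdc113, a coiled-coil protein of the axoneme, read 9.44, 9.72 and 9.39 in control, 6.79, 6.93 and 6.41 in EG in vitro and 6.95, 7.34 and 7.78 in EG in vivo. The 3 groups formed separate ranges, with EG in vitro the lowest. Against control it differed by -2.80 ± 0.23 (limma's adjusted p = 3.76e-05) and -2.16 ± 0.23 (limma's adjusted p = 0.000166), so its signal was 6.98-fold and 4.46-fold lower. Ccdc40 and Iqcg, a subunit of the nexin-dynein regulatory complex, did not pass the filter: each was detected on 5 of 9 control arrays and on no array of either transfer group.

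The 3 measured radial spoke head proteins all fell. Rsph1 read 11.55, 11.57 and 11.68 in control, 9.52, 9.52 and 9.83 in EG in vitro and 9.51, 9.24 and 10.26 in EG in vivo. Its differences of -1.98 ± 0.24 (limma's adjusted p = 0.000323) and -1.93 ± 0.24 (limma's adjusted p = 0.000408) were nearly equal. Rsph4a fell further, from 10.18, 10.47 and 9.96 in control to 7.23, 7.39 and 7.02 in EG in vitro and 7.41, 7.66 and 7.90 in EG in vivo.

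For Rsph4a the differences were -2.99 ± 0.18 (limma's adjusted p = 1.01e-05) and -2.55 ± 0.18 (limma's adjusted p = 2.33e-05). Rsph9 read 8.62, 8.92 and 9.26 in control, 7.56, 7.70 and 7.89 in EG in vitro and 7.79, 7.62 and 8.58 in EG in vivo, where replicate 3 all but reached the lowest control pool. It fell by 1.22 in EG in vitro (SE 0.27, limma's adjusted p = 0.00658) and by 0.94 in EG in vivo (SE 0.27, limma's adjusted p = 0.0222). The second call was lost without control replicate 2 or 3 or EG in vivo replicate 1 or 2 (limma's adjusted p of 0.0527 to 0.0764). A second Rsph9 probe was called in EG in vitro at -1.20 (limma's adjusted p = 0.0152) and not in EG in vivo at -0.84 (limma's adjusted p = 0.0646).

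Hydin and Spag16 were the 2 central apparatus genes that could be tested, and both fell. Neither passed the filter in EG in vitro, and Spag16 passed through the controls alone, so the filter favoured this direction. Hydin, a giant protein of the central pair, read 7.35, 7.79 and 6.77 in control, 5.55, 5.25 and 5.41 in EG in vitro and 5.34, 5.74 and 5.69 in EG in vivo. All control arrays detected it, with 5 of 9 EG in vitro and 7 of 9 EG in vivo arrays. Its differences were -1.90 ± 0.25 (limma's adjusted p = 0.000435) and -1.71 ± 0.25 (limma's adjusted p = 0.000837).

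Spag16 read 7.10, 7.31 and 6.39 in control, 5.17, 5.08 and 5.28 in EG in vitro and 5.22, 5.04 and 5.27 in EG in vivo, with both transfer groups at the same dim level. All control arrays detected it, with 3 of 9 EG in vitro and 4 of 9 EG in vivo arrays, so the differences are measured against a mostly undetected signal. It fell by 1.75 (SE 0.22, limma's adjusted p = 0.000379) and by 1.76 (SE 0.22, limma's adjusted p = 0.000415). Of its 4 kept probes, 3 were called lower in both comparisons, and 1 was not called, at -0.37 (limma's adjusted p = 0.166) and -0.17 (limma's adjusted p = 0.556). Spag17 and Spef2 were detected on no array, and Spag6 on 3, 4 and 2 of 9 arrays in control, EG in vitro and EG in vivo. Spag6l, a near copy of Spag6 with probes of its own and outside the list, fell too, with differences of -2.50 and -1.89 (limma's adjusted p = 1.8e-05 and 8.06e-05).

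Of the 6 measured tektins and doublet microtubule proteins, 5 fell and Mns1 rose. Fam183b, a marker of multiciliated cells, read 10.96, 11.07 and 11.15 in control, 8.15, 8.21 and 8.05 in EG in vitro and 8.46, 8.30 and 9.20 in EG in vivo. Its 3 groups did not overlap. The differences were -2.92 ± 0.22 (limma's adjusted p = 2.31e-05), or 7.59-fold lower, and -2.41 ± 0.22 (limma's adjusted p = 7.16e-05), or 5.30-fold lower.

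The gene 1110017D15Rik read 9.99, 10.40 and 10.28 in control, 7.29, 7.79 and 7.30 in EG in vitro and 7.73, 7.83 and 8.43 in EG in vivo. It differed by -2.76 ± 0.23 (limma's adjusted p = 3.91e-05) and -2.22 ± 0.23 (limma's adjusted p = 0.000138). Enkur and Cfap52, proteins inside the doublet microtubules, both fell, Enkur with differences of -2.38 and -1.80 and Cfap52 with differences of -2.40 and -2.05. Tekt1, a filament protein of the doublets, fell with differences of -1.02 and -0.67, and its EG in vivo call was lost when any of 7 pools was left out in turn, namely any pool other than EG in vitro replicate 3 and EG in vivo replicate 3 (limma's adjusted p of 0.0517 to 0.118).

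Mns1, a protein inside the doublets that is needed for sperm flagella and motile cilia, moved against the rest. Its pools read 9.64, 9.73 and 9.74 in control, 10.54, 10.35 and 10.36 in EG in vitro and 10.39, 10.31 and 10.73 in EG in vivo. All 6 transfer pools were above all control pools. The differences were 0.71 ± 0.14 (limma's adjusted p = 0.00346) and 0.77 ± 0.14 (limma's adjusted p = 0.00247), and the call held in all 20 alternatives. The platform names 1 probe for Mns1. In the annotation Mns1 overlaps Tex9, which also rose, by 0.96 and 0.99 (limma's adjusted p = 0.00106 and 0.000966). Which transcripts the Mns1 probe reads was not tested.

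All 9 genes of other functions in ciliated cells fell in both comparisons. Mlf1, which is expressed in multiciliated cells, read 10.38, 10.65 and 10.56 in control, 9.23, 9.54 and 9.35 in EG in vitro and 9.49, 9.79 and 9.57 in EG in vivo. The pools were close within groups, and the drop was moderate at -1.16 ± 0.14 (limma's adjusted p = 0.00027) and -0.91 ± 0.14 (limma's adjusted p = 0.00107).

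Capsl, a calcyphosine-like protein, read 9.04, 9.39 and 8.52 in control, 7.59, 7.66 and 7.37 in EG in vitro and 7.71, 7.77 and 8.06 in EG in vivo. Its differences were -1.44 ± 0.22 (limma's adjusted p = 0.00102) and -1.14 ± 0.22 (limma's adjusted p = 0.00377). Tppp3, which promotes tubulin polymerization, read 8.56, 8.59 and 9.34 in control, 6.65, 6.88 and 7.09 in EG in vitro and 6.75, 6.72 and 7.52 in EG in vivo. Replicate 3 was the highest pool of every group, and the differences were -1.96 ± 0.28 (limma's adjusted p = 0.000774) and -1.83 ± 0.28 (limma's adjusted p = 0.0012).

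Cdhr3 and Sntn had the largest differences of the 33 genes, and their pool values were picked out after they had been seen. Cdhr3, a cadherin of ciliated airway cells and in humans the receptor of rhinovirus C, read 9.70, 9.93 and 9.80 in control, 5.83, 5.59 and 5.54 in EG in vitro and 6.07, 5.88 and 6.69 in EG in vivo. Its brightest probe was 17.9-fold lower in EG in vitro (log2 difference -4.16 ± 0.21, limma's adjusted p = 4.76e-06) and 12.2-fold lower in EG in vivo (-3.60 ± 0.21, limma's adjusted p = 1.02e-05). Its 2 other kept probes were called lower too, by -2.72 and -0.78 in EG in vitro and by -2.78 and -0.59 in EG in vivo.

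Sntn, which encodes sentan of the ciliary tip, read 8.61, 9.26 and 7.76 in control and was detected on all 9 arrays there. In the transfer groups it was detected on no array, with measured means of 4.61 and 4.67. By this brighter probe and at the offset of 16, it was at least 10.1-fold lower in EG in vitro and at least 9.36-fold lower in EG in vivo (limma's adjusted p = 3.43e-05 and 4.35e-05). A second Sntn probe, dimmer and detected on the same arrays, had smaller measured differences of -2.03 and -2.06 (limma's adjusted p = 0.0003 and 0.00031). The bounds therefore hold for 1 probe and not for the gene.

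The remaining 4 genes of this kind fell by different amounts. Pifo, which acts at the base of cilia, had differences of -2.49 and -1.88. Klhdc9, a kelch-domain protein, had differences of -1.39 and -0.82. Ak7, an adenylate kinase of the axoneme, had differences of -1.25 and -0.84 and was detected on 3 of 9 EG in vitro and 7 of 9 EG in vivo arrays, but its EG in vivo call was lost without EG in vivo replicate 1 or 2 (limma's adjusted p = 0.0622 and 0.0739). Stk33, a protein kinase, was detected on 8 control arrays and none in the transfer groups, and was at least 1.86-fold and at least 1.72-fold lower.

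**Figure D3:**
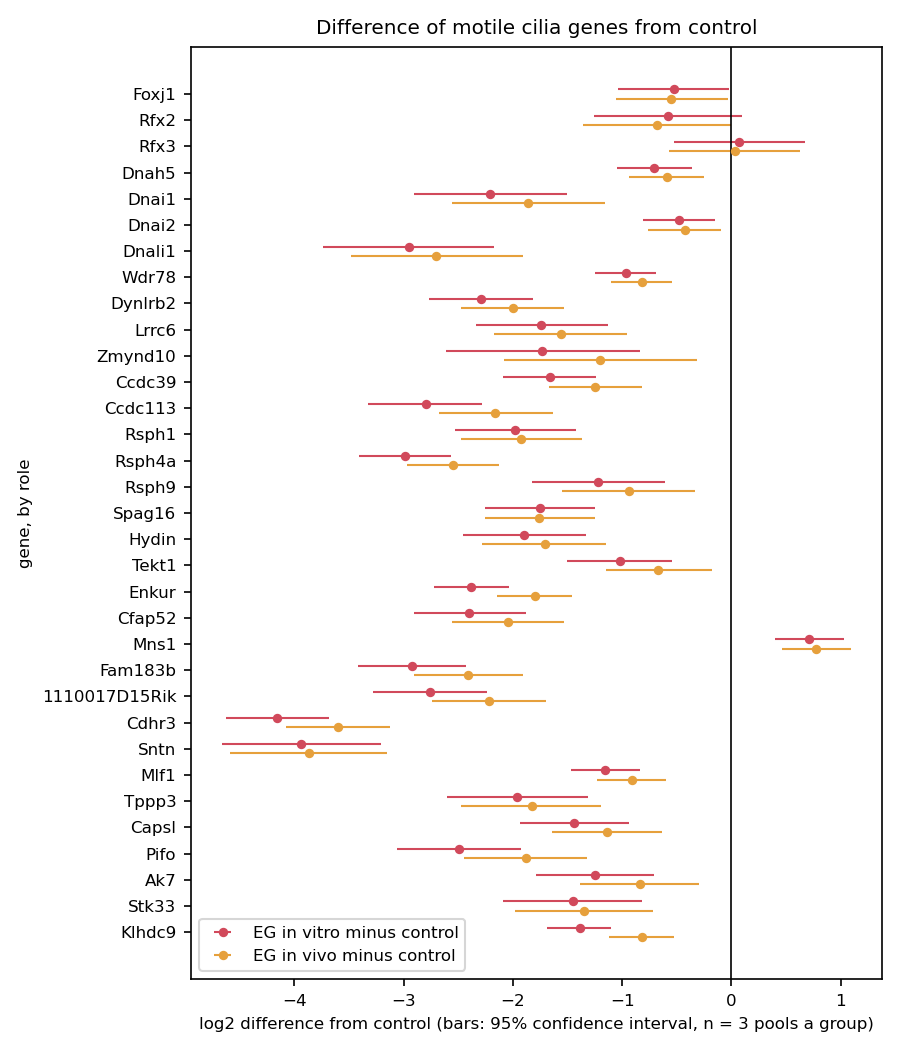
Log2 difference from control (horizontal axis) of the 33 genes with a kept probe, by role, for EG in vitro (red) and EG in vivo (yellow). Points are differences of group means over 3 pools and bars are 95% confidence intervals. Most intervals lie left of 0, Mns1 lies right of it, and those of Rfx3 span it, as does that of Rfx2 in EG in vitro. For Dnah5, Dnai2, Sntn and Stk33, not detected in the transfer groups, the points are measured values and not bounds.

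The next comparison set the transfer groups against each other, which asks about the origin of the blastocyst with the transfer shared. No motile cilia gene was called between EG in vitro and EG in vivo by limma, and 0% of all genes were called. At an unadjusted p under 0.05, 8 of the 33 genes passed, beside 1.28% of the 11945 genes, and the lowest adjusted p of any gene was 1. The fit on single arrays called 1 probe and the fit with array weights called 2 probes of the whole table, none of them of these genes.

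Most of the genes had the lower mean in the same group, though none was called. All genes were read in the same pools, so they are not independent, and a count of them does not test the groups. In EG in vitro the mean was lower than in EG in vivo for 29 of the 33, with a median difference of -0.28, while 59.1% of all genes were lower in EG in vitro and their median was -0.03. For 8 genes all 3 EG in vitro pools lay below all EG in vivo pools (4.24% of all genes): Ccdc113, Rsph4a, Enkur, Fam183b, Cdhr3, Capsl, Ak7 and Klhdc9. The reverse held for 0 of the 33 (1.17% of all genes). Klhdc9 was the clearest case, with EG in vitro pools at 6.73, 6.77 and 6.62 and EG in vivo pools at 7.35, 7.14 and 7.33.

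The pools of EG in vivo were not alike in this. EG in vivo replicate 3 was the highest of the 6 transfer pools for 24 of the 33 genes (72.7%), and for 42.4% of all genes. Without it the median difference between the transfer groups was -0.10. The SD between pools had a median of 0.41 over the 33 genes in EG in vivo, against 0.153 in EG in vitro and 0.232 in control, while over all genes the 3 medians were 0.214, 0.165 and 0.215. The club cell secretoglobin Scgb1a1 was also higher in that pool, at 9.19 against 7.01 and 7.24 in the other EG in vivo pools. Its part in the result was not tested.

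Other genes of the axoneme, outside the 42, gave a similar picture. Of 54 listed, 35 could be tested, and 26 fell and 2 rose in EG in vitro (median -1.26), while 22 fell and 2 rose in EG in vivo (median -1.23). With the replicate block the counts were 26 lower and 3 higher, and 23 lower and 3 higher. The counts of this list and those below stand beside the shares of all genes. These were 23.0% lower and 21.8% higher in EG in vitro, and 21.2% and 22.2% in EG in vivo. By measured values the largest decreases of the 35 in EG in vitro were those of Cfap65 (-3.03 and -2.53), Cfap70 (-2.70 and -2.11), Drc1, the scaffold of the nexin-dynein regulatory complex (-2.68 and -2.34), and Cfap57 (-2.51 and -2.24). Cfap57 was detected on 1 of 9 EG in vitro and 3 of 9 EG in vivo arrays, so the size of its decrease is uncertain. Dnah11, an outer arm heavy chain, stood out at 3.04 and 2.94 by its brighter probe (limma's adjusted p = 2.21e-05 and 3.05e-05). Its second probe went the other way, at -1.14 (limma's adjusted p = 0.022) and -0.90 (limma's adjusted p = 0.0549), so no direction is given for the gene, and in the annotation it overlaps Cdca7l. The other gene counted as higher was Dnaaf2, a dynein assembly factor, at 1.12 and 1.10.

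The regulators that commit cells to multiciliogenesis, upstream of or beside Foxj1, included none that was called lower. Of 13 listed, 9 could be tested, and Cdc20b, Trp73, Ccdc78 and Rfx4 did not pass the filter. Of the 9, 0 were called in EG in vitro by limma (median 0.04). In EG in vivo only Mcidas, which starts the multiciliated program, was called, and it rose by 0.92 (limma's adjusted p = 0.0442). In EG in vitro Mcidas differed by 0.57 (limma's adjusted p = 0.177). E2f4 and E2f5, its transcriptional partners, both differed by 0.51 in EG in vitro (limma's adjusted p = 0.0868 and 0.125) and by 0.41 and 0.39 in EG in vivo (limma's adjusted p = 0.167 and 0.236). With the replicate block Mcidas, E2f4 and E2f5 were called higher in each comparison and none of the 9 lower (limma's adjusted p = 0.028, 0.0114 and 0.0124 for EG in vitro, and 0.00377, 0.0304 and 0.0372 for EG in vivo). Ccno and Gmnc, which act early in the same program, differed by -0.27 and -0.28 in EG in vitro without being called (limma's adjusted p = 0.193 and 0.279). Gmnc was detected on 4 of 9 arrays in each transfer group, so the size of a fall there is uncertain. Myb read 5.87, 7.72 and 4.57 in the control pools, too far apart to show a small difference.

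Genes that serve all cilia, motile or not, had medians near or above 0. Of 24 intraflagellar transport genes, the trains that carry cargo along every cilium, 6 fell and 1 rose in EG in vitro (median 0.04), and 1 fell and 1 rose in EG in vivo (median 0.03). Ttc30b had the largest decrease (-0.90 and -0.72), and Ttc26 rose by 0.57 and 0.67. With the replicate block the counts were 7 lower and 3 higher in EG in vitro, and 4 lower and 2 higher in EG in vivo. Of 19 genes of the BBSome and the transition zone, which gate the ciliary base, 1 fell and 5 rose in EG in vitro (median 0.42), and 1 fell and 9 rose in EG in vivo (median 0.51). Bbs12, at 0.89 and 0.80, and B9d1, at 0.77 and 0.86, were among those that rose. With the block, 3 fell and 10 rose in EG in vitro, and 2 fell and 14 rose in EG in vivo. Over all genes, 23.0% fell and 21.8% rose in EG in vitro without the block, and 21.2% and 22.2% in EG in vivo. The share of transport genes that fell in EG in vitro, and of BBSome and transition zone genes that rose there, was near these. With the block 5958 of the 22958 kept probes fell and 6841 rose in EG in vitro, and 5846 and 6625 in EG in vivo.

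Centriole duplication genes included several that rose. Of 12 measured, 7 rose and 0 fell in each comparison, with medians of 0.89 and 0.90, and with the replicate block 9 rose in each. Plk4, the kinase that starts centriole duplication, rose by 1.84 and 1.69, Cep97 by 1.65 and 1.51, Cep152 by 1.17 and 1.19, and Sass6, which builds the centriole cartwheel, by 1.13 and 1.07.

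**Figure D4:**
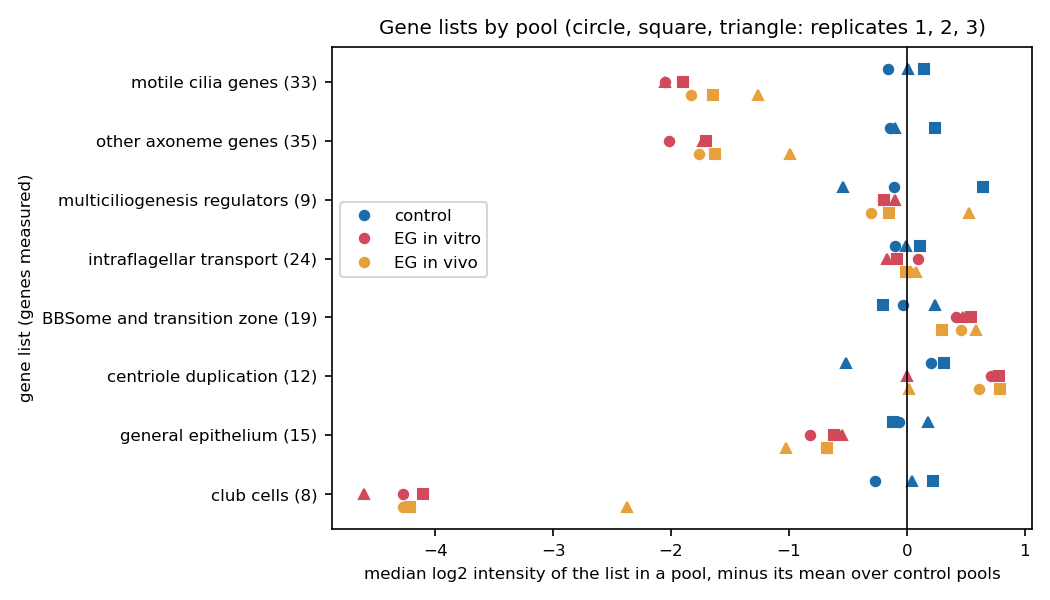
Median normalized log2 intensity of each gene list in each pool, minus the mean of that median over the control pools (horizontal axis), with the number of genes measured in brackets. Colours are groups and symbols are replicates 1, 2 and 3. The motile cilia genes and the other axoneme genes lie far left of control in every transfer pool, intraflagellar transport genes lie near 0, and the club cell genes lie furthest left of the lists drawn.

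Markers of other epithelial cells of the lung were looked at beside the motile cilia genes. Of 15 general epithelial genes, 6 fell and 0 rose in each comparison (medians -0.28 and -0.36), led by Krt19 at -1.57 and -1.43, and the median level of the list was 10.54 to 10.84 in control pools, 9.84 to 10.11 in EG in vitro and 9.63 to 9.98 in EG in vivo. With the replicate block, 6 fell and 1 rose in EG in vitro, and 7 fell and 1 rose in EG in vivo. The same median for the motile cilia genes was 8.62 to 8.93, 6.73 to 6.88 and 6.95 to 7.52. Of 8 club cell genes 7 fell in each comparison (medians -4.09 and -3.90), with Scgb1a1, the club cell secretory protein, at -8.20 and -7.05, and with the block 1 also rose in EG in vivo. Club cell markers fell alongside the ciliated cell genes, and their part in the result was not tested.

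The alveolar lists fell as well. Of 9 type II genes 8 fell in each comparison (medians -3.67 and -3.33), and all 9 type I genes fell (medians -2.62 and -2.24). With the block 1 type II gene also rose in EG in vivo. Of 4 basal cell genes 2 fell and 1 rose, and of 4 neuroendocrine genes 1 fell and 2 rose, in each comparison. Heart muscle genes, a check on tissue dissected with the lung, fell for 5 of 6 genes in EG in vitro and 4 of 6 in EG in vivo (medians -1.53 and -1.20), and for all 6 in both with the block. Nppa, also a listed heart gene, did not pass the filter and was high in single transfer pools. It read 10.45 in EG in vivo replicate 2 and 7.21 in EG in vitro replicate 1. The other transfer pools read 4.54 to 4.74 and the control pools 4.60 to 5.42. The part of these lists in the result was not tested.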

How the data were processed

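The deposited intensity values, 1 mean signal per probe on each of 27 arrays, are not normalized and come with a detection p-value, per the file headers. The authors' processed matrix, quantile normalized judging by its columns, served as an alternative. For scanner software and genome build, nothing is stated in the sources used here. Probes were named from the platform annotation: 34885 of 45281 had 1 symbol, 18 several and 10378 none, and 34807 matched RefSeq by gene identifier.

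The neqc function of limma 3.58.1 (run in R 4.3.3) corrected background, normalized by quantiles and took log2, at an offset of 16. A probe was kept with a detection p under 0.05 on at least 6 of 9 arrays of 1 group or more. The 3 technical arrays of a pool were averaged, and lmFit and eBayes were run over 9 pools, with Benjamini-Hochberg adjustment over all 22958 kept probes and two-sided tests. The kept probe with the highest mean stood for its gene. The script was tested on simulated data.

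Whether the replicate numbers in the labels pair pools is not stated. Deviations from the group means correlated in every same-numbered pair, at 0.503 to 0.827. Different-numbered pairs ranged from -0.814 to 0.774, and 6 of 9 pools correlated best with a pool of their own number. Every negative correlation set a replicate 3 pool against a pool of another number. Replicates 1 and 2 were not told apart: control replicate 2 correlated at 0.774 with EG in vitro replicate 1 and at 0.537 with EG in vitro replicate 2. The reported fit has no block, and the fit with the block is printed beside each member and list count that it changes. The members, gene lists and motifs were chosen with earlier results of these data known. Pool values are given for the transcription factors, for up to 3 members of each other role with the highest mean, for members not called, and for members whose probes differ in call. Other lists are given by counts, medians and their largest called changes, at most 4 each. Precision is limited by the 3 pools per group.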

Additional observations from a re-analysis of the deposited data

How the results depend on the processing

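The counts of motile cilia genes called against control stayed within 1.5 times the reported count of 30 under all 20 alternatives. With 33 genes measured, that limit could be broken by lower counts alone. Between the transfer groups no motile cilia gene was called under any alternative. The median log2 difference in EG in vitro was -1.03 in the authors' processed matrix, -1.33 with an offset of 50 and -2.08 with an offset of 4, the last chosen after seeing the data. In EG in vivo it was -0.82, -1.10 and -1.90 under the same settings and -1.22 with no filter. Leaving out 1 pool at a time gave counts of 29 to 31 for EG in vitro and 24 to 32 for EG in vivo, with medians of -1.82 to -1.59 and -1.76 to -1.39. Of the 30 genes called in each comparison, 29 for EG in vitro and 24 for EG in vivo kept their call wherever they were tested. The stricter filter left out Dnah5, Dnai2 and Stk33, which were tested under 19 alternatives. Dnai2 lost it in both, and Dnah5, Zmynd10, Tekt1, Rsph9 and Ak7 in EG in vivo alone.

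With the replicate block 32 genes were called in each comparison, Foxj1 and Rfx2 being added, and no other member's call changed. Foxj1 and Rfx2 were also called with median scaling, with array weights (a fit that did not fully converge) and with replicates 1 and 2 alone. Array weights called 8371 of the 22958 kept probes lower and 9566 higher in EG in vitro, and 7361 and 8358 in EG in vivo. The block and replicates 1 and 2 alone also called more probes than the reported fit, with counts given above. Median scaling called fewer, at 4483 and 4329 in EG in vitro and 4272 and 4359 in EG in vivo. Rfx3, never called, changed sign in EG in vitro with array weights (-0.01) and without control replicate 3 (-0.11) or EG in vitro replicate 1 (-0.03). In EG in vivo it did so with median scaling (-0.02) and without control replicate 3 (-0.15), EG in vivo replicate 1 (-0.09) or EG in vivo replicate 2 (-0.13). Over all left-out pools its difference ran from -0.11 to 0.21 and from -0.15 to 0.30. The causes were not tested. Probes near background limit the folds, which moved with the offset. Whether the groups' arrays shared a run is not stated.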
